A study of Arabidopsis thaliana with 12 samples.

Results

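Histones are the proteins around which DNA is wound in the nucleus, and the 43 genes described here encode the core histones H2A, H2B, H3 and H4, their variants and the linker histone H1 of Arabidopsis thaliana. The members were chosen by name from the histone families and not by a rule on their values, though with earlier results of these data known. They make up 43 of the 33602 genes measured. Of them, 27 encode replication-dependent core histones (8 H4, 5 H3.1, 10 H2B and 4 H2A genes), 13 encode variants (3 H3.3, 2 H2A.X, 3 H2A.W, 4 H2A.Z genes and the seed H2B gene AT1G08170) and 3 encode H1.

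Replication-dependent histones are made mainly in S phase, when newly copied DNA has to be packed, so their transcripts are abundant in dividing cells. Variants are also made outside S phase, and some replace core histones at particular places: H3.3 at transcribed genes, H2A.Z near gene starts and H2A.W in heterochromatin. H2A.X is linked to the response to DNA breaks. Linker histones bind the DNA between nucleosomes. In the embryo of a seed, cells divide while the body plan is laid down and stop dividing before the seed dries, which is why the balance of these classes is of interest at this stage.

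Messenger RNA was measured in embryos at the torpedo stage, dissected by hand, in 4 groups of 3 libraries each and 12 libraries in all. The 2x wt embryos came from a diploid (2n) Col-0 mother pollinated by diploid Col-0, and the 2x nrpd1 embryos from the same kind of mother pollinated by diploid nrpd1, both taken 6 days after pollination. The 3x wt embryos came from a diploid Col-0 mother and a tetraploid (4n) Col-0 pollen donor, and the 3x nrpd1 embryos from a diploid Col-0 mother and a tetraploid nrpd1 pollen donor, labelled as taken 8 days after pollination. The nrpd1 donors, called pol4 in the labels, carry nrpd1-3, a mutation in the largest subunit of RNA polymerase IV. The mother was wild type in all 4 groups, so nrpd1 embryos kept the maternal copies of the gene, and a transcript level of NRPD1 cannot check these labels: it stood at 2.51 ± 0.155 RPKM in 2x wt, 3.56 ± 0.849 in 2x nrpd1, 1.75 ± 0.370 in 3x wt and 2.93 ± 1.01 in 3x nrpd1 (mean ± SD, n = 3). Each library pooled about 150 embryos, the tetraploid donors were made with colchicine, and triploid and diploid embryos differed in ploidy and in age, which cannot be told apart. The sources differ on the age of the 3x nrpd1 embryos, which is elsewhere given as 6 days after pollination. If that age holds, 3x nrpd1 and 2x nrpd1 embryos were of the same age, and age and pollen donor cannot be told apart between 3x nrpd1 and 3x wt. In such bulk samples, fewer cells of a type and less RNA per cell cannot be told apart either.

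The unit is RPKM, reads scaled to gene length and to the reads of the library, which allows levels of genes to be compared per length. About 6851605 to 13602764 reads lay behind the RPKM of a library, and a gene 1000 bp long with 3 reads had 0.221 to 0.438 RPKM. Counts of markers under 1 RPKM in this paragraph are of group means. Markers of the embryo were present in every group, with none of 10 under 1 RPKM, though WOX2 had 0.343 RPKM in 3x wt replicate 3. Of 11 endosperm markers, 9 had a mean below 1 RPKM in each of the wt groups. Their summed level was 54.8 to 66.6 RPKM among 2x wt libraries and 85.7 to 93.9 RPKM among 3x wt libraries, carried by SUC5, and TAR1 and AGL36 were at 0 in both. Of 10 seed coat markers, 6 had a mean below 1 RPKM in 2x wt embryos and 5 in 3x wt embryos. Among these, TT12 reached 1.11 RPKM in 3x wt replicate 1 and MUM2 1.41 RPKM in 3x wt replicate 3. The summed levels were 161 to 175 RPKM in 2x wt and 276 to 339 RPKM in 3x wt, carried by SBT1.7. Of the 6 seed coat markers tested in 3x wt versus 2x wt, BAN, TT10 and SBT1.7 were called up (2.59, 2.92 and 1.14 on the log2 scale), TT12 fell by 0.97, and TTG2 (-0.37) and MUM4 (0.15) did not pass. Both endosperm markers tested were higher: PHE1 was called up, being listed at 0 in all 2x wt libraries and at 1.22 to 1.96 RPKM in those of 3x wt, and SUC5 rose by 0.77. Of 10 embryo markers 5 rose and 3 fell, from LEC1 at -0.99 to FUS3 at 0.79. In 2x nrpd1 and 3x nrpd1 these sums were 54.1 to 65.0 and 22.3 to 75.5 RPKM for endosperm, and 176 to 197 and 116 to 191 RPKM for seed coat, with 10 and 8 endosperm and 4 and 6 seed coat markers under 1 RPKM. The part of these cells in the histone results was not tested.

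A single library stood apart. In 3x nrpd1 replicate 3 the RPKM summed to 866778, against 711651 to 751239 in the other 11 libraries, and its log2 ratio to the rest of its group fell with exon length across genes (Pearson's r = -0.549 over 17663 genes, which are not independent replicates). Histone genes are short, and 39 of the 40 detected histone genes were highest of their group in this library, by a median of 1.66-fold on RPKM as deposited. On the log2 scale this median was 0.73, against 0.43 for the 2533 genes with up to 1000 bases of exons. The share of all genes that were highest in this library is not given. The results with 3x nrpd1 are therefore given with and without it. In its partner libraries r was 0.462 and 0.406. Each partner was set against a mean that includes replicate 3, so these values are not separate from the trend of replicate 3. In the other 9 libraries r lay between -0.149 and 0.178. The plot shows the histone genes of each library against the rest of its group.

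**Figure D1:**
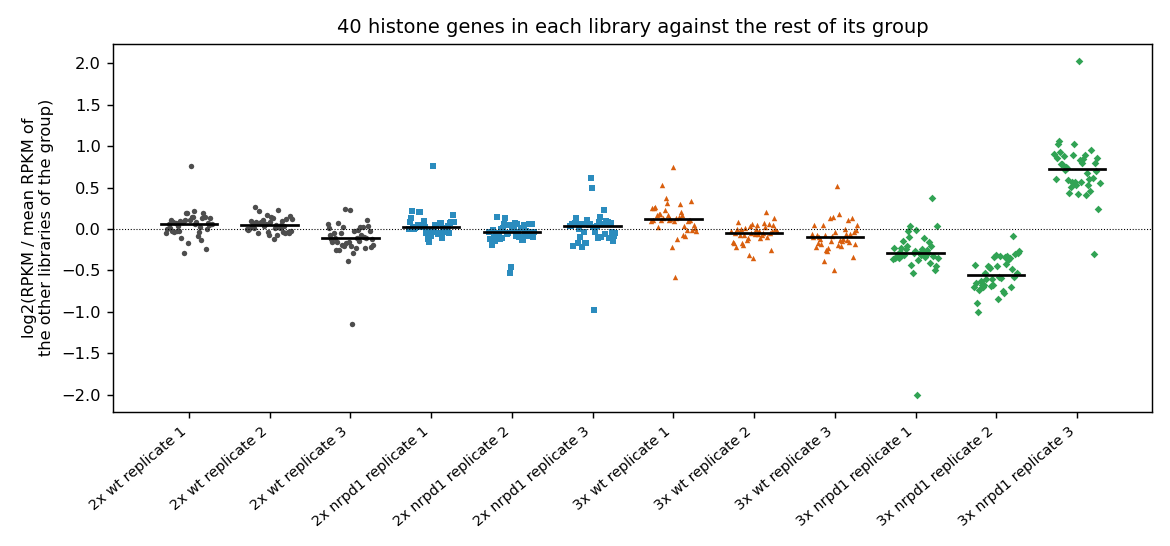
Each point is a histone gene (40 genes above the detection filter), and the vertical axis is log2 of its RPKM in a library divided by its mean RPKM in the other libraries of that group, for the 12 libraries on the horizontal axis; black lines are medians. In 3x nrpd1 replicate 3 nearly all genes lie above 0, and those of its 2 partner libraries lie mostly below 0. The mean used for each partner includes replicate 3, so these positions are not independent.

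The sequences put the families in order. The 8 H4 genes encode 1 and the same protein of 103 residues, and the 5 H3.1 genes 1 and the same protein of 136 residues, so differences within these classes are differences of gene use and not of product. The H3.1 protein and that of the H3.3 genes AT4G40040 and AT5G10980 differed at 4 of 136 residues. The 10 H2B proteins were all distinct (71.6% to 97.3% identical in pairs), and the seed H2B AT1G08170, at 243 residues, was 27.2% to 31.7% identical to them.

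Upstream of histone genes, 2 short motifs are known: OCT (CGCGGATC) and HEX (ACGTCA), both described in plant histone promoters. Within 250 bases upstream of the gene start, on both strands, OCT was found in 10 of 43 histone genes and in 0.135% of all 27443 protein-coding genes. Among classes it was found in 3 of 5 H3.1, 2 of 8 H4 and 2 of 4 H2A genes and in 0 of 10 H2B genes. HEX was found in 11 of 43 histone genes, 8 of them among the 10 H2B genes, and in 7.689% of all genes. The following stretches of 150 bases end at the base before the gene start (RefSeq annotation of TAIR10.1) and show how the motifs lie in an H4, an H3.1 and an H2B gene, OCT or HEX in capitals. They are chr5:24051324-24051473 on the plus strand, chr1:2972335-2972484 on the minus strand and chr3:16914132-16914281 on the minus strand.
AT5G59690 (H4): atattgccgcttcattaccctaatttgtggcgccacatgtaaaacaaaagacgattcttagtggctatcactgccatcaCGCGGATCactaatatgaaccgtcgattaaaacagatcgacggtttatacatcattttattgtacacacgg
AT1G09200 (H3.1): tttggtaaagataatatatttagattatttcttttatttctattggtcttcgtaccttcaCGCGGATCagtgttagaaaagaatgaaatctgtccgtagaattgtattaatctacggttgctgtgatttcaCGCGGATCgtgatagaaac
HTB11 (H2B): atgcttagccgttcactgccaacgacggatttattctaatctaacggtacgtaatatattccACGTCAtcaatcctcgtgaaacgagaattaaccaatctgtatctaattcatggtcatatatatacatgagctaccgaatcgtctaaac

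The H4 genes AT3G45930 and AT3G46320 on chromosome 3 are close copies in their coding and upstream sequences. Their upstream stretches are shown because these genes had different transcript levels in 3x wt (below). The stretches are chr3:16883166-16883315 on the plus strand and chr3:17020429-17020578 on the minus strand, differ at 2 of 150 bases, given in capitals, and hold neither OCT nor HEX. Their coding sequences differed at 8 of 312 bases. Over the whole transcribed gene the copies were less alike, with 99 of 628 aligned bases different (84.2% identical).
AT3G45930: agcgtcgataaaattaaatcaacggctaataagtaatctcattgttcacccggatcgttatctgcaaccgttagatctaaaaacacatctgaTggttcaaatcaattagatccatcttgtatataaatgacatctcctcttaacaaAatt
AT3G46320: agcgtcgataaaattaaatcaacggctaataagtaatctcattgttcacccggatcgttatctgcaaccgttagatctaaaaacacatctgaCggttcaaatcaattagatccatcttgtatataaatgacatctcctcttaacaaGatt

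Histone transcripts were among the most abundant of the embryo. In 2x wt, 32 of the 43 genes stood above 100 RPKM, and the lowest of these stood at percentile 95.3 of genes with a value above 0. The highest were AT5G59690 (H4) at 787 ± 35.8 RPKM, HTB4 (AT5G59910, H2B) at 760 ± 52.2 RPKM and HTA6 (AT5G59870, H2A.W) at 617 ± 61.1 RPKM (mean ± SD, n = 3), and the spread of HTB4 overlapped with that of AT5G59690. Other leaders of their class were AT1G09200 (H3.1) at 554 ± 34.2 RPKM, AT4G40040 (H3.3) at 439 ± 6.25 RPKM, HTA10 (AT1G51060, H2A) at 385 ± 16.9 RPKM, AT1G06760 (H1) at 331 ± 19.6 RPKM, HTA9 (AT1G52740, H2A.Z) at 259 ± 7.89 RPKM and HTA5 (AT1G08880, H2A.X) at 197 ± 10.7 RPKM. Together the 43 genes held 1.54% ± 0.0736 of all RPKM in 2x wt, 1.27% ± 0.0816 in 3x wt, 1.66% ± 0.0450 in 2x nrpd1 and 1.73% ± 0.367 in 3x nrpd1. The 3 values in 3x wt (1.19% to 1.36%) lay below all others.

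**Figure D2:**
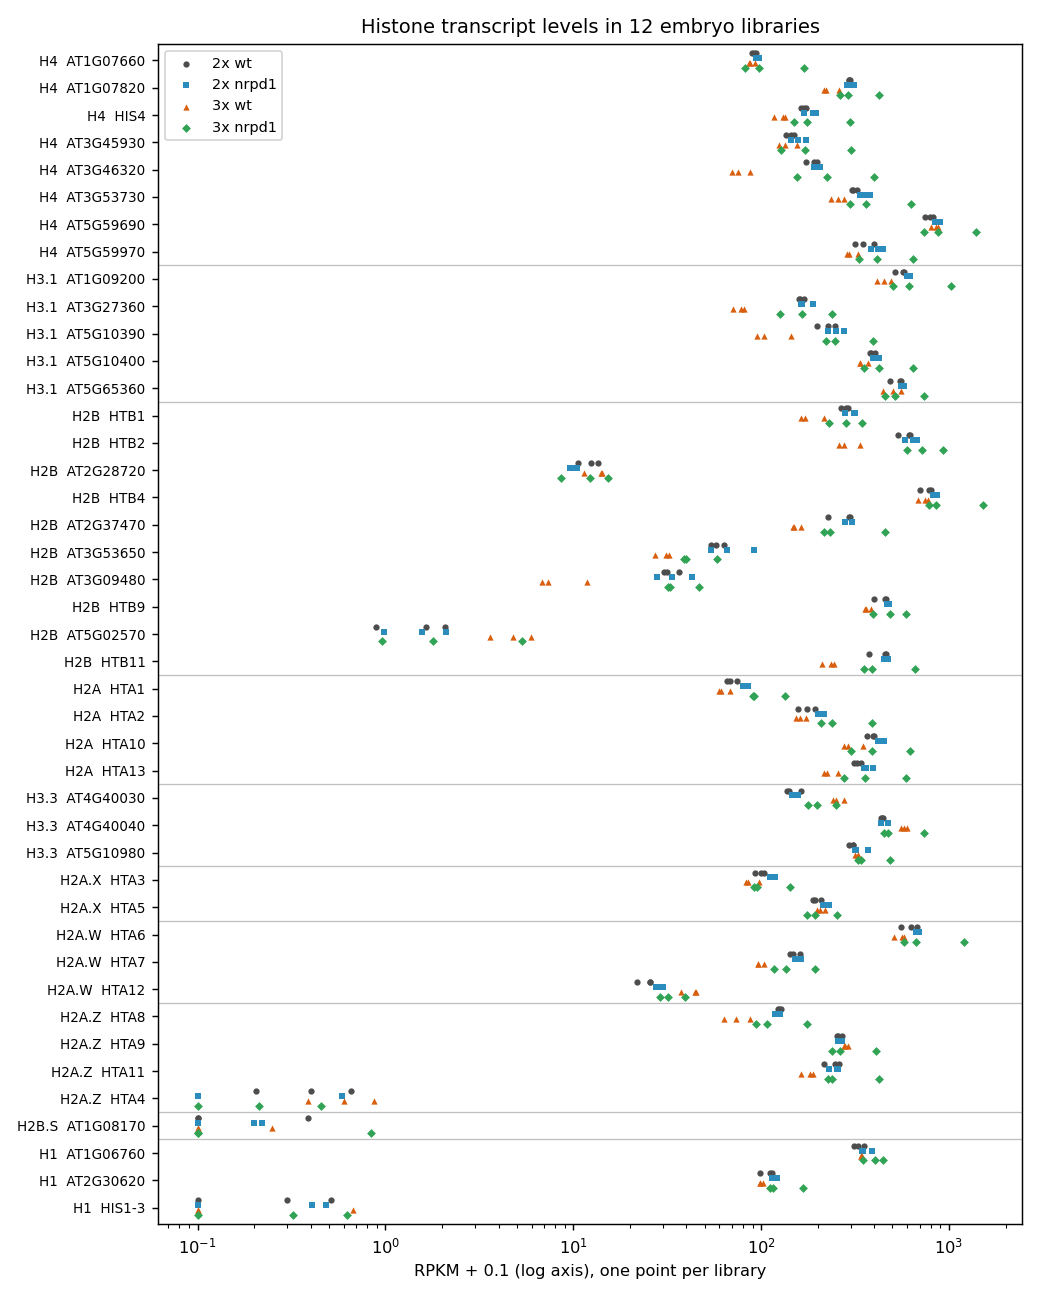
RPKM + 0.1 on a log axis for the 43 histone genes in rows, ordered by class, with a point for each of the 12 libraries and a symbol for each group. Most genes lie between 50 and 1000 RPKM, AT1G08170, HTA4 and HIS1-3 lie under 1 RPKM in every library, and 3x wt points (triangles) lie to the left in many H2B and some H4 and H3.1 genes.

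The seed H2B gene AT1G08170 was not detected above the level of a few reads. It was listed at 0 in 2x wt replicates 1 and 2, in 2x nrpd1 replicate 3, in 3x wt replicates 1 and 3 and in 3x nrpd1 replicates 1 and 3, and the highest value was 0.739 RPKM in 3x nrpd1 replicate 2, worth about 5.13 reads. The H2A.Z gene HTA4 (AT4G13570) had 0 to 0.769 RPKM and the H1 gene HIS1-3 (AT2G18050), known as drought-inducible, 0 to 0.569 RPKM. These 3 genes did not pass the filter of at least 1 RPKM in 3 libraries, no difference was detectable at this depth and none of them was tested. The other 40 genes were tested in every comparison. The 150 bases upstream of AT1G08170 (chr1:2563707-2563856, minus strand) are shown for contrast with the core genes: they hold neither OCT nor HEX, and the ABRE core ACGTG, a motif linked to abscisic acid response, lies there on both strands with overlap (capitals). This core was found in 18 of 43 histone genes, 15 of them among the 27 replication-dependent genes, and in 22.9% of all protein-coding genes. It therefore does not set AT1G08170 apart from the core genes. In each gene with HEX a copy of this core overlaps HEX, so the counts of these motifs are not independent.
AT1G08170: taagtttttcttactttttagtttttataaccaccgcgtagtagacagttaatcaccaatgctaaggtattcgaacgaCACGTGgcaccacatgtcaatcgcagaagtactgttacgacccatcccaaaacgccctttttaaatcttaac

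The comparison of 3x wt with 2x wt asked how histone transcripts differ in triploid embryos, formed with a tetraploid pollen donor, from those in diploid embryos. Many replication-dependent genes were lower and H3.3 genes were higher. Tests were made with limma on log2(RPKM + 0.5) over all 17965 genes that passed the filter, after scaling by a median ratio. In the following, "rose" and "fell" mean an adjusted p under 0.05, and "called" means in addition a log2 fold change above 1 or below -1. Of the 27 replication-dependent genes, 11 fell and 2 rose, where over all genes tested 24.6% were lower and 26.7% higher. Of the 11 variant genes tested, 6 rose and 2 fell, and neither of the 2 H1 genes tested changed. The median log2 fold change was -0.13 for replication-dependent genes, 0.24 for variants and 0.13 for H1, against -0.01 for all genes. By call, 2 histone genes were down and 1 was up, where 4.85% of all genes were down and 11.1% up.

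The scale bears on these counts. Without scaling, on RPKM as deposited, the median of all genes moved to -0.16 and 16 replication-dependent genes fell and 1 rose, with 34.1% of all genes lower and 20.3% higher. The variants that rose numbered 3 on that scale (AT4G40030, AT4G40040 and HTA12) and 3 fell. Under quantile normalization, with the median of all genes at -0.11, 14 replication-dependent genes fell and 4 variants rose. These 2 counts are given without the share of all genes. The medians of replication-dependent genes (-0.29 and -0.24) and of variants (0.08 and 0.05) lay on the same sides of 0 in both, while that of H1 was -0.03 and 0.02. Single libraries decided some calls as well. Without 2x wt replicate 2 the calls up numbered 3, with AT4G40030 at 1.05 and HTA12 at 1.00, without 3x wt replicate 2 they numbered 2, with HTA12 at 1.02, and without 3x wt replicate 2 the variants that rose numbered 3. The 2 calls down were made without any single library.

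Among H4 genes, AT3G46320 was called down. Its level was 197, 190 and 174 RPKM in the 2x wt libraries, against 87.4, 70.0 and 74.9 RPKM in those of 3x wt. Every 3x wt library lay below every 2x wt library, and the log2 fold change was -1.11 (SE 0.10, adjusted p = 2.86e-05, limma). Its copy AT3G45930 stood at 144, 150 and 136 RPKM (2x wt) and at 154, 135 and 124 RPKM (3x wt), with overlapping groups and a log2 fold change of 0.10 (SE 0.095, adjusted p = 0.388, limma). The ratio of AT3G46320 to AT3G45930, which no scaling of a library can change, was 0.520 to 0.603 in 3x wt libraries, against 1.27 to 1.37 for 2x wt, 1.15 to 1.43 for 2x nrpd1 and 1.22 to 1.32 for 3x nrpd1, replicate 3 included. The pair was picked after these values were seen, so this is a description. Of the windows of 125 bases, the read length, 6.92% in AT3G46320 and 6.32% in AT3G45930 were found again elsewhere in the genome.

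The other H4 genes moved little. HIS4 (AT2G28740) fell by 0.24 on the log2 scale, and AT5G59690, the highest H4 gene, rose by 0.27, from 787 ± 35.8 to 845 ± 36.4 RPKM with overlapping libraries. On RPKM as deposited AT5G59690 did not pass the test. AT1G07660 (0.11), AT5G59970 (-0.06), AT3G53730 (-0.13) and AT1G07820 (-0.19) did not pass either. AT3G46320 made up 8.00% ± 0.262 of all H4 transcripts in diploid wt embryos and 3.75% ± 0.301 in triploid ones, and the summed H4 level was 2339 ± 94.5 and 2065 ± 110 RPKM.

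Among H3.1 genes the change was carried by AT3G27360 and AT5G10390. AT3G27360 went from 161, 159 and 169 RPKM to 80.7, 70.8 and 78.3 RPKM, and fell by 0.92 (SE 0.07, adjusted p = 1.81e-05, limma), just inside the fold limit. AT5G10390 went from 227, 246 and 198 RPKM to 144, 104 and 95.2 RPKM, and fell by 0.82 (SE 0.15, adjusted p = 0.00152, limma). In both genes the groups did not overlap. AT1G09200, AT5G10400 and AT5G65360, which encode the same protein, had log2 fold changes of -0.13, -0.00 and 0.08 and did not pass the test. The share of AT3G27360 and AT5G10390 in all H3.1 transcripts went from 20.4% to 21.0% in 2x wt to 11.9% to 13.7% in 3x wt.

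The H2B class had the widest spread: 6 of its 10 genes fell, with a median of -0.55. AT3G09480, a minor H2B gene, was called down, from 30.2, 31.6 and 36.2 RPKM to 11.8, 7.23 and 6.72 RPKM, which is -1.75 on the log2 scale (SE 0.17, adjusted p = 5.08e-05, limma). HTB2 (AT5G22880) had 615, 623 and 537 RPKM in diploid wt embryos, 335, 277 and 260 RPKM in triploid ones, and fell by 0.87 (SE 0.11, adjusted p = 0.000256, limma). For both genes all 3x wt libraries lay below all 2x wt libraries. AT3G53650, HTB11 (AT3G46030), AT2G37470 and HTB1 (AT1G07790) fell by 0.77, 0.74, 0.65 and 0.45 on the log2 scale. HTB4, the highest H2B gene, and HTB9 (AT3G45980) had 0.12 and -0.08 and did not pass, nor did AT2G28720 (0.28), which stood at 12.1 ± 1.48 RPKM in 2x wt. The summed H2B level was 2877 ± 218 RPKM (2x wt) and 2018 ± 146 RPKM (3x wt).

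The H2B gene AT5G02570 was called up, but its reads cannot be told apart from those of a neighbour. It had 1.99, 1.54 and 0.796 RPKM among 2x wt libraries, about 3.93 to 13.1 reads, and 3.52, 4.68 and 5.85 RPKM among 3x wt libraries, about 14.4 to 22.2 reads, with a log2 fold change of 1.57 (SE 0.29, adjusted p = 0.0018, limma). The gene (chr5:576655-577176, minus strand) lies within the span of the H2A.W gene HTA12 (AT5G02560, chr5:575225-577216, plus strand), and the library kit did not mark strand. HTA12 itself went from 21.7, 25.6 and 25.5 RPKM to 44.2, 37.5 and 44.8 RPKM and rose by 0.95 (SE 0.10, adjusted p = 9.5e-05, limma), without overlap and just inside the fold limit. Without AT5G02570 no replication-dependent histone gene was called up. Other members tested also overlap a neighbour. AT3G27360 does so on the same strand, and HTB9, HTA13, HTA3, HTA9, AT1G06760 and AT2G30620 on the other strand. The part of the neighbours' reads in their values was not tested.

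Of the 4 replication-dependent H2A genes, HTA13 (AT3G20670) fell by 0.32 on the log2 scale, and HTA10 (-0.18), HTA1 (AT5G54640, 0.02) and HTA2 (AT4G27230, 0.06) did not pass. The summed H2A level was 955 ± 43.8 RPKM (2x wt) and 761 ± 65.0 RPKM (3x wt). As counted on RPKM as deposited, every 3x wt library lay below every 2x wt library in 17 of the 27 replication-dependent genes, and 39.6% of all genes tested did so.

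**Figure D3:**
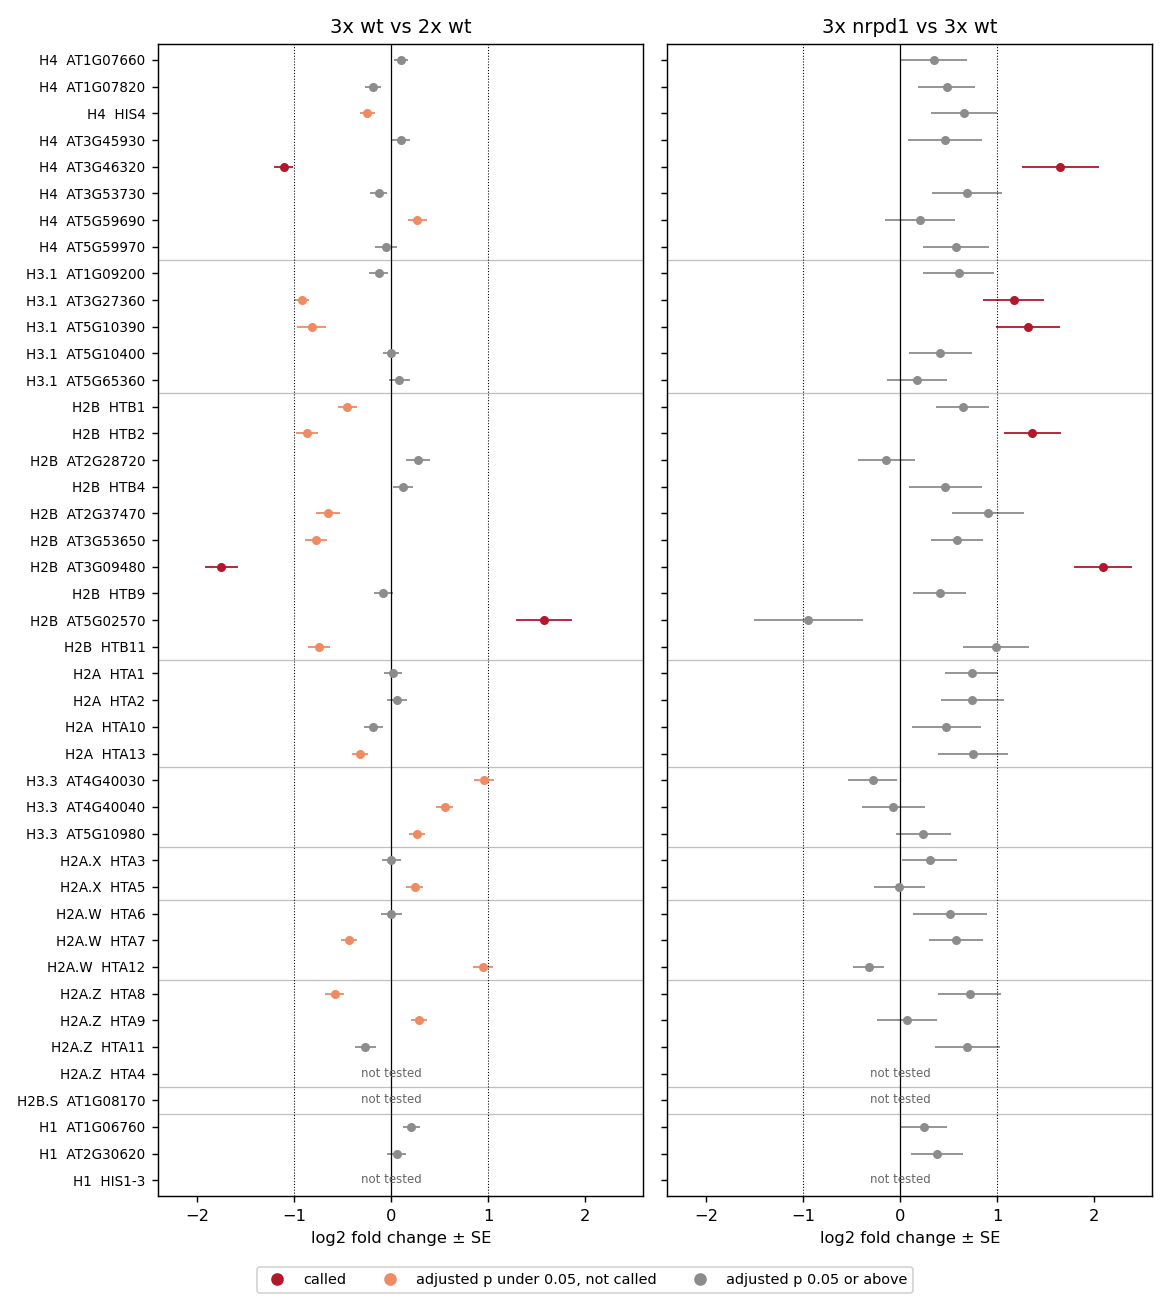
Log2 fold change with its SE (limma) for each histone gene in rows, in 3x wt versus 2x wt on the left and 3x nrpd1 versus 3x wt on the right; dotted lines mark the fold limits of -1 and 1, and colours mark called genes, genes past the adjusted p only and the rest. On the left AT3G46320 and AT3G09480 lie below -1 and AT5G02570 above 1, and the 3 H3.3 genes lie above 0; on the right 5 replication-dependent genes lie above 1.

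All 3 H3.3 genes rose. AT4G40030 went from 141, 163 and 137 RPKM to 275, 249 and 240 RPKM, and rose by 0.96 (SE 0.10, adjusted p = 7.39e-05, limma), the variant nearest to the fold limit. AT4G40040 went from 432, 441 and 444 RPKM to 555, 596 and 574 RPKM, and rose by 0.55 (SE 0.09, adjusted p = 0.000759, limma). AT5G10980 rose by 0.26 (adjusted p = 0.0253, limma), from 303 ± 9.45 to 324 ± 7.27 RPKM, a change that did not pass on RPKM as deposited, where its log2 fold change was 0.10. In a fit of all 12 libraries AT4G40040 (0.57, adjusted p = 0.0776) and AT5G10980 (0.28, adjusted p = 0.33, both limma) did not pass, which left AT4G40030 (0.97, adjusted p = 0.0017, limma). In each of the 3 genes all 3x wt libraries lay above all 2x wt libraries, and 23.2% of all genes did so.

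The ratio of summed H3.3 to summed H3.1 level is a measure within each library. It was 0.463, 0.472 and 0.50 for the 2x wt libraries and 0.707, 0.799 and 0.825 for those of 3x wt. For 2x nrpd1 it was 0.457, 0.458 and 0.501, and for 3x nrpd1 0.516, 0.579 and 0.487. The 3 values of 3x wt lay above the other 9, and H3.3 made up 43.7% ± 2.01 of H3.3 and H3.1 transcripts in 3x wt against 32.4% ± 0.869 in 2x wt. Both sides moved: the H3.3 sum was 888 ± 22.0 RPKM (2x wt) and 1154 ± 21.8 RPKM (3x wt), and the H3.1 sum 1860 ± 100 and 1492 ± 137 RPKM. No test was made on these sums over chosen members.

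**Figure D4:**
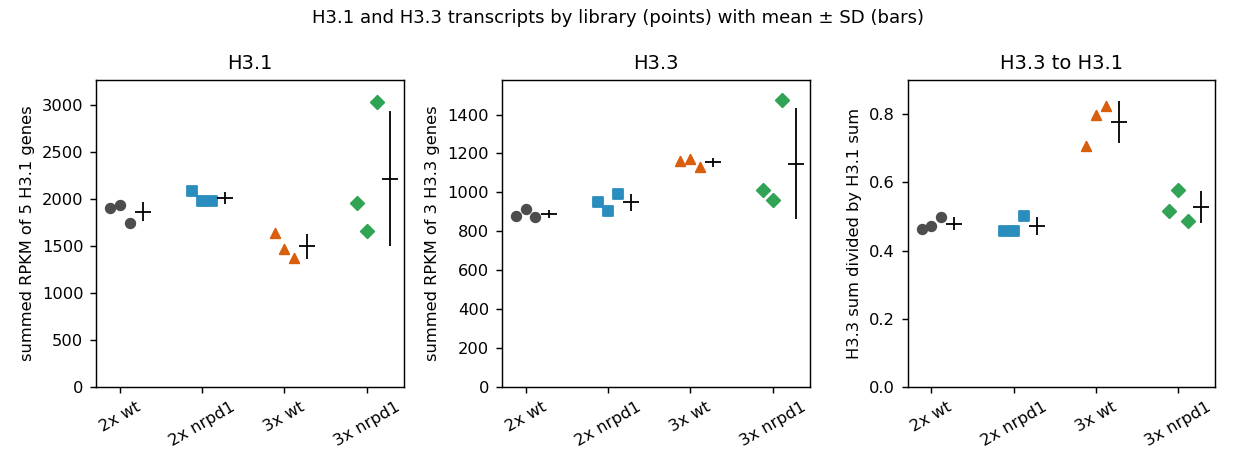
Summed RPKM of the 5 H3.1 genes, summed RPKM of the 3 H3.3 genes and their ratio, by group, with a point for each library and bars for the mean ± SD (n = 3). The ratio lies between 0.46 and 0.58 in 2x wt, 2x nrpd1 and 3x nrpd1 libraries and between 0.71 and 0.83 in 3x wt libraries.

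Variants of H2A went both ways within a class. In H2A.W, HTA12 rose as given above, HTA7 (AT5G27670) fell by 0.44 (150 ± 9.23 to 98.9 ± 4.18 RPKM, adjusted p = 0.00209, limma), and HTA6, with most of the H2A.W transcripts, had 0.00. In H2A.Z, HTA9 rose by 0.29 and HTA8 (AT2G38810) fell by 0.58 (125 ± 1.98 to 74.9 ± 11.8 RPKM, adjusted p = 0.00125, limma), while HTA11 (AT3G54560) had -0.27 and did not pass. In H2A.X, HTA5 rose by 0.24 and HTA3 (AT1G54690) had 0.00. The rises of HTA9 and HTA5 did not pass on RPKM as deposited. The H1 genes AT1G06760 and AT2G30620 had 0.21 (adjusted p = 0.0769) and 0.06 (adjusted p = 0.638, both limma).

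Of the genes that work beside the histones, those of DNA replication and the chaperones of H2A and H2B fell, and other groups were mixed. Of 8 DNA replication genes, the MCM2 to MCM7 helicase subunits and the sliding clamps PCNA1 and PCNA2, 8 fell by 0.41 (MCM2) to 0.96 (PCNA1) on the log2 scale, and none was called. All 7 chaperones of H2A and H2B fell, led by the nucleosome assembly proteins NAP1;2 by 0.98, NAP1;3 by 0.97 and NAP1;1 by 0.94. Of the 23 histone assembly genes in all, 11 fell and 0 rose, UBN2, a homologue of a subunit of the HIRA complex that deposits H3.3, being called down at -1.30 (SE 0.17, adjusted p = 0.000296, limma). The subunits of CAF-1, which deposits H3.1, did not pass (FAS1 -0.39, FAS2 -0.30, MSI1 -0.00). The remaining assembly genes were mixed: 12 of the 23 did not pass, among them ATRX (0.23), and of the 5 remodelers, with a median of 0.02, DDM1 fell by 0.93 and PIE1 had 0.25 without passing. Among chaperones of H3 and H4 ASF1B fell by 0.62 and ASF1A had -0.17, without passing. Among other H3 genes, HTR11 (AT5G65350) was called down at -1.84, HTR12, the centromeric H3, fell by 0.48, and AT1G75600 was called up, being listed at 0 in all 2x wt libraries and at 2.47 to 4.81 RPKM in 3x wt.

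As to motifs, the 7 replication-dependent genes with OCT had a median log2 fold change of -0.00 (-0.32 to 0.27), 1 falling and 1 rising, and the 20 without it a median of -0.22 (-1.75 to 1.57), 10 falling and 1 rising. The 10 with HEX had a median of -0.55 and the 17 without it -0.13. Since 8 of 10 H2B genes carry HEX and none carries OCT, motif and class cannot be told apart, and no test was made.

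The comparison of 3x nrpd1 with 3x wt asked how histone transcripts differ in triploid embryos when the pollen donor lacked NRPD1. Over 17913 genes tested, 5 histone genes were called up and 0 down, where 3.18% of all genes were up and 6.5% down. All 5 were replication-dependent: AT3G46320 at 1.65 (SE 0.40, adjusted p = 0.0297), AT3G27360 at 1.17 (SE 0.31, adjusted p = 0.042), AT5G10390 at 1.31 (SE 0.33, adjusted p = 0.0346), HTB2 at 1.36 (SE 0.30, adjusted p = 0.0207) and AT3G09480 at 2.09 (SE 0.30, adjusted p = 0.00421, all limma). All 5 had fallen in 3x wt versus 2x wt, a comparison that shares the 3x wt libraries. At any fold 5.92% of all genes were higher and 8.46% lower, and no histone gene was added to the 5. No variant or H1 gene was called, and every 3x nrpd1 library lay above every 3x wt library in 19 of the 27 replication-dependent genes, as in 19.6% of all genes, while the medians were 0.60 for replication-dependent genes, 0.24 for variants and 0.31 for H1, against -0.01 for all genes.

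Genes of other lists were called in this comparison too: HTR11 (2.26), the endosperm marker ZOU (1.74) and the embryo marker LEC1 (1.27) were up, and the seed coat markers BAN (-2.17), TT10 (-2.14) and SBT1.7 (-1.03) and the embryo marker WOX5 (-1.01) were down. In 3x nrpd1, AT3G46320 had 225, 156 and 398 RPKM, HTB2 had 716, 596 and 932 RPKM and AT3G09480 had 32.7, 32.02 and 46.7 RPKM. AT3G27360 had 165, 127 and 239 RPKM and AT5G10390 had 247, 220 and 393 RPKM. In each of the 5 genes the highest value was that of replicate 3, and the lowest still lay above every 3x wt library.

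Without 3x nrpd1 replicate 3, the SE of these genes shrank and so did the changes. AT3G46320 (1.16, adjusted p = 0.00138), HTB2 (1.06, adjusted p = 0.000535) and AT3G09480 (1.79, adjusted p = 0.000796) were still called. AT5G10390 (0.94, adjusted p = 0.00286) and AT3G27360 (0.80, adjusted p = 0.00233, all limma) rose within the fold limit. With these 2 libraries against 3, 9 replication-dependent genes rose in all, where 13.5% of all genes were higher, and their median was 0.24. The variants then had a median of -0.07, with 4 lower and 1 higher, 2 of the lower being H3.3 genes, and 16.5% of all genes were lower. AT5G02570 was then called down at -1.64 (adjusted p = 0.00621, limma), so the direction of variants and the call of AT5G02570 turned on that library. With the trend on exon length removed and all libraries kept, 8 replication-dependent genes rose, where 10.4% of all genes were higher, their median was 0.34 and that of variants -0.03. Under quantile normalization the median of variants was also -0.03, so its direction was not the same under every scaling.

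Calls in this comparison also turned on the other libraries. Without any of the 3x wt libraries, AT3G09480 alone was called, and without 3x nrpd1 replicate 1, AT3G09480 and HTB2. The log2 fold changes were 1.59 to 1.77 for AT3G46320, 1.29 to 1.44 for HTB2, 1.201 to 1.47 for AT5G10390 and 1.12 to 1.27 for AT3G27360 in the settings that lost the call by adjusted p (0.0505 to 0.178, limma). In these settings, which kept 3x nrpd1 replicate 3, the sizes stayed beyond the fold limit while the adjusted p did not pass. Without that replicate the sizes were smaller and the adjusted p lower, as given above.

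**Figure D5:**
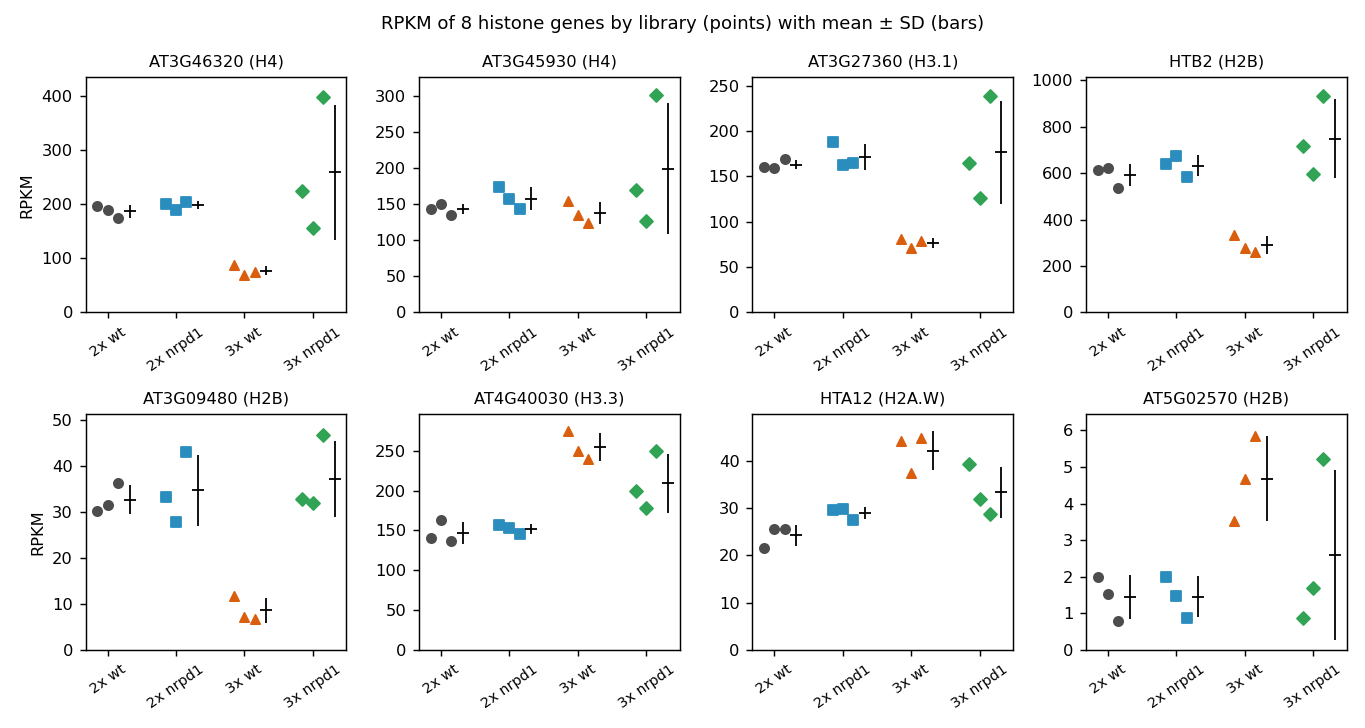
RPKM of 8 histone genes by group, with a point for each library and bars for the mean ± SD (n = 3), each panel on its own linear axis from 0. AT3G46320, AT3G27360, HTB2 and AT3G09480 lie lower in every 3x wt library than in any library of the other groups. In AT3G45930, the copy of AT3G46320, the 3x wt libraries overlap with those of the other groups. AT4G40030, HTA12 and AT5G02570 are highest in 3x wt apart from single 3x nrpd1 libraries. In all panels but HTA12, 3x nrpd1 replicate 3 is the highest point of its group.

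Between the nrpd1 groups and between the diploid groups no histone gene was called. In 3x nrpd1 versus 2x nrpd1, 0.904% of 17585 genes were called up and 0.0171% down, and the medians were 0.28 for replication-dependent genes, 0.31 for variants and 0.27 for H1, against -0.02 for all genes. Every 3x nrpd1 library lay above every 2x nrpd1 library in 2 of 40 histone genes, as in 8.14% of all genes. An unadjusted p under 0.05 was found for 10.9% of these genes. Without 3x nrpd1 replicate 3 the medians were -0.10, -0.05 and 0.03 in the same order, so the direction of the core genes and variants turned on that library. In 2x nrpd1 versus 2x wt, 0 of 17472 genes were called by limma, and 5.63% of the genes passed 0.05 before adjustment. The histone genes had a median of 0.15 there, against 0.00 for all genes, and in 15 of 40 every 2x nrpd1 library lay above every 2x wt library, as 4.26% of all genes did. AT3G46320 (199 ± 7.62 RPKM), HTB2 (633 ± 44.1 RPKM) and AT3G09480 (34.7 ± 7.68 RPKM) had in 2x nrpd1 levels that overlapped with those of 2x wt.

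Whether the change with ploidy differed between pollen donors was tested as an interaction over all 12 libraries, the change of 3x wt from 2x wt minus that of 3x nrpd1 from 2x nrpd1. Over 18561 genes tested 2.77% were called down and 5.32% up, and 3 histone genes were called down: AT3G46320 at -1.52 (SE 0.44, adjusted p = 0.0421), HTB2 at -1.22 (SE 0.32, adjusted p = 0.0278) and AT3G09480 at -1.98 (SE 0.35, adjusted p = 0.00377, all limma). HTA12 had 0.63 (SE 0.17, adjusted p = 0.0338, limma), higher within the fold limit, and at any fold 6.73% of all genes were higher and 4.96% lower. AT3G27360 (-1.05, adjusted p = 0.0627) and AT5G10390 (-1.10, adjusted p = 0.0764, both limma) did not pass, and the H3.3 gene AT4G40030 had 0.38 (adjusted p = 0.38, limma), so with all libraries a difference between donors was not shown for H3.3. The median was -0.42 for replication-dependent genes and -0.03 for variants, against 0.02 for all genes.

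Without 3x nrpd1 replicate 3 the interaction of AT3G46320 was -1.04 (adjusted p = 0.00266) and that of AT3G09480 -1.69 (adjusted p = 0.00138), both called, and that of HTB2 was -0.93 (adjusted p = 0.00318, all limma), within the fold limit. AT3G27360 (-0.69, adjusted p = 0.00564) and AT5G10390 (-0.73, adjusted p = 0.0265, both limma) then passed the test within the fold limit. AT5G02570 was called up at 1.701 in the same fit. The H3.3 genes AT4G40030 (0.64, adjusted p = 0.0072) and AT4G40040 (0.53, adjusted p = 0.0057, both limma) then passed the test, 5 variants in all were higher, where 11.7% of all genes were, and the medians were -0.02 for replication-dependent genes and 0.29 for variants. Both H3.3 genes also passed under quantile normalization (0.53 and 0.39). AT3G09480 was called without any of the 12 libraries. AT3G46320 lost its call without any of the 2x wt, 2x nrpd1 or 3x wt libraries (-1.46 to -1.60, adjusted p = 0.0614 to 0.108, limma), and HTB2 without 2x wt replicates 1 and 2, 2x nrpd1 replicates 1 and 3 and 3x wt replicates 2 and 3, each left out in turn (-1.15 to -1.22, adjusted p = 0.061 to 0.084, limma). Over 20 alternatives to the main fit, AT3G46320 lost its call in 10 and HTB2 in 8. For AT3G46320, 9 of these left out a library and the other kept all libraries. Without 3x nrpd1 replicate 2, AT3G27360 (-1.33) and AT5G10390 (-1.33) were called down as well.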

How the data were processed

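Polyadenylated RNA of 12 embryo libraries was sequenced (paired reads of 125 bases) with a kit that does not mark strand. Trimmomatic (trimming) and TopHat2 (mapping to TAIR10) were used by the authors, keeping 1 alignment per read, before counting per gene. The deposited values are RPKM per gene and library, whose total is not given in the sources used here. Depth was estimated from low RPKM and exon lengths of TAIR10.1. Only 29.6% to 39.1% of low values came out whole within 0.02 reads, so reads are approximate and no count test was run.

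Each library was divided by its median ratio to the geometric mean of the libraries in the fit. Genes reaching 1 RPKM in 3 or more libraries were kept, and log2(RPKM + 0.5) was tested two-sided with limma 3.58.1 in R 4.3.3 (intensity trend, Benjamini-Hochberg over all genes). Fold changes on this scale understate those of low genes. A pairwise fit used its 6 libraries, the interaction 12. Calls needed an adjusted p under 0.05 together with a log2 fold change beyond 1 in size. Members and lists were chosen with earlier results of these data known. Named by rule are members called, those nearest the limit, the highest and the extremes of each class and AT1G08170, and of other lists, in the pairwise comparisons, the called and in 3x wt versus 2x wt the extremes. Other names, and the pair AT3G45930 and AT3G46320, were picked with the values known. Genes with a profile like AT1G08170 are not given, since it has almost no reads. Alternatives were pseudocounts of 0.1 and 1, no filter, RPKM as deposited, quantile normalization, a mean of at least 5 RPKM, all 12 libraries in 1 fit, a replicate block and each library left out. Removal of the exon-length trend and counts at adjusted p with any fold were added after the data were seen. Motifs, sequences and protein identity were computed in Python 3.11.15 with Biopython from RefSeq TAIR10.1. The fits were tested on simulated data.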

Additional observations from a re-analysis of the deposited data

Results flagged for a closer look

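In 3 histone genes the change from diploid to triploid embryos differed between the pollen donors by the interaction test (limma over 12 libraries). The difference was -1.52 for AT3G46320 (H4), -1.22 for AT5G22880 (HTB2, H2B) and -1.98 for AT3G09480 (H2B) on the log2 scale. Of all 18561 genes tested, 2.77% were called down. Over 20 alternatives to the main fit AT3G46320 lost its call in 10 and HTB2 in 8. In each of the 3 genes, 3 of 3 libraries of 3x wt lay below all libraries of the other groups. The genes were picked by a test on the same libraries, and the share of all genes with such a separation is not given.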

How the results depend on the processing

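No direction of a called result turned under another setting with all libraries. On RPKM as deposited 4 histone genes were called down in 3x wt versus 2x wt and 3 variants rose. Of all 17965 genes tested 1292 were then called down, against 872 in the main fit. In the interaction 5 histone genes were called down on that scale, as were 590 of 18561 genes, against 515 in the main fit. Counts at any fold in this paragraph are given without the share of all genes, which moves with the setting. In a fit of all 12 libraries 7 replication-dependent genes fell and 2 variants rose, AT4G40030 and HTA12, in 3x wt versus 2x wt, and 10 replication-dependent genes rose in 3x nrpd1 versus 3x wt. With a mean of at least 5 RPKM 0 histone genes were called up in 3x wt versus 2x wt, since AT5G02570 was not tested. With no filter 3 were called up, as were 2323 of 24733 genes, and 3 replication-dependent genes rose in 3x nrpd1 versus 3x wt. There, 9 rose under quantile normalization and 8 with the exon-length trend removed, a setting that also put the median of replication-dependent genes minus that of all genes, in 3x wt versus 2x wt, at -0.18 instead of -0.12. Of all calls in 3x wt versus 2x wt, 69.5% were up, against 56.6% on RPKM as deposited and 57.4% under quantile normalization.

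With each library left out in turn, 1 to 3 histone genes were called up and 2 down in 3x wt versus 2x wt, 10 to 11 replication-dependent genes fell, 3 to 6 variants rose, and that median difference was -0.21 to -0.063. In 3x nrpd1 versus 3x wt 1 to 5 were called up and 0 to 1 down, and 1 to 9 replication-dependent genes rose. In the interaction 1 to 5 were called down and 0 to 1 up. In the other comparisons the count was 0.

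Replicate numbers are shared between groups, and nothing in the labels pairs the crosses. The deviations of same-numbered libraries correlated at r = -0.09, -0.03 and 0.08 in 3x wt and 2x wt, 0.09, 0.05 and 0.04 in 3x nrpd1 and 3x wt, where all other pairs were negative, 0.24, -0.15 and 0.17 in 3x nrpd1 and 2x nrpd1, and 0.04, 0.25 and 0.29 in 2x nrpd1 and 2x wt, where other pairs ran from -0.27 to 0.12. In no comparison did all 3 exceed 0.1. With the replicate block, 1 histone gene was called up and 2 down in 3x wt versus 2x wt, 5 up in 3x nrpd1 versus 3x wt and 3 down in the interaction.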
